A study of Mus musculus with 16 samples.

Results

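Hepcidin and the genes around it were followed across sorted cells of the mouse liver. The 10 genes were Hamp, Hamp2, Tfr2, Hfe, Bmp6, Trf, Tfrc, Fth1, Ftl1 and Slc40a1. They were taken by the gene name attached to each array probe, which gave 12 probes of 41174 other than controls. Tfr2 carries the name Trfr2 in the array annotation and was matched through its accession. Hfe and Bmp6 have 2 probes each, and the brighter probe stands for the gene. All 12 probes passed the filter on dim signals, as did 23309 of 28034 gene names on the array.

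Cells came from livers of c129/S3 mice on a Purina 5015 diet, either untreated or after 2 weeks with 0.1% DDC by weight in the food. DDC (3,5-diethoxycarbonyl-1,4-dihydrocollidine) blocks ferrochelatase, the enzyme that places iron into heme, and is used to provoke bile duct injury. Flow sorting used 2 surface markers, MIC1-1C3 (written M) and CD133, which Prom1 encodes. M+133+ cells carried both markers and M-133- cells carried neither. Untreated livers gave 4 samples of M+133+ and 2 of M-133- cells, and DDC livers gave 4 of each. These 14 samples took 16 arrays, because 1 sample of each untreated group was hybridized again. Over genes, the repeat arrays correlated at 0.91 for M+133+ untreated sample 1 and 0.83 for M-133- untreated sample 2. Different samples of a group correlated at 0.83 to 0.92. The labels call the samples biological replicates, and the number of mice behind each is not given in the sources used here.

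Hepcidin is a peptide hormone that hepatocytes secrete. It binds ferroportin, the product of Slc40a1 and the exporter of cellular iron, and sends it for degradation, so that less iron enters the blood. In liver, BMP6 from endothelial cells signals through SMAD proteins to raise Hamp, Hfe and Tfr2 take part in sensing iron-loaded transferrin, and IL-6 raises Hamp through STAT3. Transferrin (Trf) carries iron in blood, the transferrin receptor (Tfrc) takes it up, and ferritin, built of a heavy (Fth1) and a light (Ftl1) chain, stores it.

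A level is the log2 processed signal minus the 75th percentile of its array, so 0 marks that percentile. That percentile ran from 602.8 to 2732 intensity units, lowest in M-133- untreated sample 1, and the share of probes well above background from 59.7% to 77.0%. For M-133- untreated sample 2 the percentile was 2081 on the first array and 705.9 on the second. Duct markers followed the sort in untreated livers: their summed level was 7.30 to 7.52 in M+133+ and -0.13 to 1.19 in M-133- samples, where Prom1 was not well above background on any array. In M-133- DDC samples the duct sum was 3.58 to 5.76, but the median duct marker was at -3.52 to -2.33, against -4.38 and -2.79 in M-133- untreated samples. Of the 9 duct markers, Sox9 and Spp1 were called higher with DDC in M-133- cells. The M-133- cells were a mixture. Hepatocyte markers (9 genes) summed to 8.34 to 9.74 in M-133- untreated and 8.24 to 9.12 in M-133- DDC samples, against 5.80 to 6.78 and 6.28 to 7.09 in the matching M+133+ groups. The sums of endothelial, stellate and erythroid markers were likewise higher in M-133- than in M+133+ cells of both treatments. The median erythroid marker overlapped after DDC, at -5.81 to -0.25 in M-133- and -5.94 to -3.59 in M+133+ samples. Of the 9 erythroid markers, 3 were called lower in M+133+ DDC cells. The median level of the hepatocyte markers was 3.17 in M+133+ DDC sample 2, against -1.19 to 1.23 in the other M+133+ DDC samples. By the sum this sample did not stand apart, at 7.09 beside 7.08 in M+133+ DDC sample 1.

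Hamp and Hamp2 lie next to each other on chromosome 7 and encode closely related peptides, so the probes themselves decide whether the 2 genes can be told apart. The probes are shown with capitals at the bases that differ between them.
Hamp probe: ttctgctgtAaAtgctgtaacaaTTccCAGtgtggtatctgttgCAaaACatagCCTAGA
Hamp2 probe: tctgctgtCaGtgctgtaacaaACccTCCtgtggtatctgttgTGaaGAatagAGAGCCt
The Hamp probe lies at chr7:31727490-31727549 and the Hamp2 probe at chr7:31707520-31707579, both on the minus strand of build mm9. Over the 59 bases at which they align, with a shift of 1 base, 42 are identical (71.2%) and 17 differ, and the longest identical run is 14 bases. How much of either transcript binds to the other probe was not tested.

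The promoters of the 2 genes are also alike, and are shown because IL-6 and BMP signals are known to act on the hepcidin promoter. RefSeq entries on GRCm38.p6 were found for 8 of the 10 genes. The window printed covers bases 150 to 51 before the transcription start, with capitals for GGCGCC, the core of a BMP-responsive element, and for TTCNNNGAA, the pattern that STAT proteins bind. Both patterns read the same on either strand and do not overlap here.
Hamp promoter: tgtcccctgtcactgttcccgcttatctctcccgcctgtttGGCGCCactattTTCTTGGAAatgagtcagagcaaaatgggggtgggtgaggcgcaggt
Hamp2 promoter: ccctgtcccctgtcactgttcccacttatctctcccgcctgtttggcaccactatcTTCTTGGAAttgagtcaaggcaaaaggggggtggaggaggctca
These windows are chr7:30944080-30944179 for Hamp and chr7:30924232-30924331 for Hamp2, both on the minus strand. Hamp holds GGCGCC 109 bases and TTCNNNGAA 97 bases before its start. Hamp2 holds TTCNNNGAA 94 bases before its start and no GGCGCC in its 300-base entry. GGCGCC occurs in 11.9% of 32851 promoter entries of the same length and TTCNNNGAA in 8.3%. Among the other members with an entry, GGCGCC was found at 1 start site of Tfrc, and TTCNNNGAA at none.

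The first question was how M+133+ cells differ from M-133- cells in each treatment. In untreated livers 6 of the 10 genes were lower in M+133+ cells, Hamp, Hamp2, Tfr2, Trf, Ftl1 and Fth1, and none was higher. Over all genes tested with limma 8.79% were called at an adjusted p under 0.05, 5.16% in the lower direction and 3.63% in the higher. The groups did not overlap, with M+133+ lower, for 9 of the 10 genes, against 17.9% of all genes. In DDC livers Hamp, Tfr2, Trf, Fth1 and Slc40a1 were lower in M+133+ cells, and Tfrc and Bmp6 were higher. There 12.9% of all genes were called, 6.48% lower and 6.44% higher. The groups did not overlap for these 5 lower and 2 higher genes, against 7.05% of all genes with M+133+ lower and 7.67% with M+133+ higher. The median log2 difference over the 10 genes was -3.60 in untreated and -2.23 in DDC livers, beside -0.07 and 0.31 over all genes tested. In these bulk samples, fewer cells of a type and less RNA per cell cannot be told apart.

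The second question was what DDC did within each sort. In M+133+ cells limma called 0 of the 10 genes, where 0.24% of all genes were called, although 4 of the 10 had an unadjusted p under 0.05, as did 2907 of 23309 genes. In M-133- cells only Bmp6 passed the test, lower after DDC, where 1.02% of all genes were called and 0.403% were called lower. All DDC samples lay below both untreated samples for Bmp6, Tfrc and Slc40a1, 3 of the 10, against 12.7% of all genes. The DDC effects of the 2 sorts differed for 0 of the 10 genes by limma's interaction term, which called 0.257% of all genes. Unadjusted, 3 of the 10 and 2328 of 23309 genes had an interaction p under 0.05. The sort and DDC comparisons share samples, so their values are not independent.

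**Figure D1:**
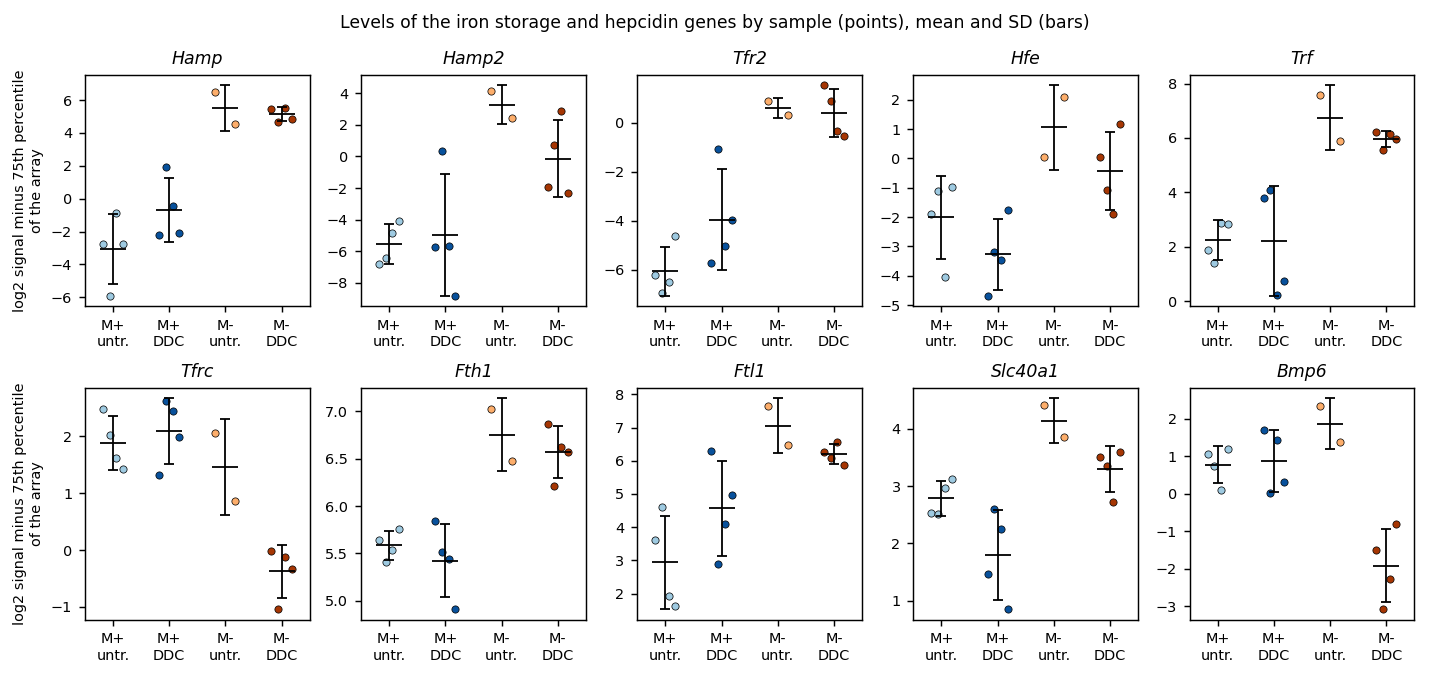
Level of each gene (log2 signal minus the 75th percentile of its array, y axis, scaled per panel) in the 4 groups (x axis), with a point per sample and bars for mean and SD. Hamp is high in all 6 M-133- samples (4.52 to 6.50), Tfrc and Bmp6 are lowest in M-133- DDC samples, and Fth1 spans a narrow range.

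Hamp, the gene of the circulating hormone, had the smallest adjusted p among the 10 genes in both sort comparisons. Its levels were -2.77, -5.91, -0.85 and -2.73 in M+133+ untreated samples and 6.50 and 4.52 in M-133- untreated samples. After DDC they were -2.23, 1.93, -0.43 and -2.07 in M+133+ and 5.45, 4.67, 5.53 and 4.87 in M-133- samples. All M-133- samples were above all M+133+ samples, and M+133+ samples spread over a wider range. M+133+ untreated cells were 381-fold below M-133- untreated cells (log2 difference -8.57, SE 1.25, adjusted p 0.000611), and called at -9.56 to -7.32 in the alternatives. After DDC the gap was 57.0-fold (-5.83, SE 1.02, adjusted p 0.00133), and -6.71 without M+133+ DDC sample 2. No slide held both sorts after DDC. With slide as a block the DDC difference was -5.07 and no longer called (adjusted p 0.0895).

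Within a sort, Hamp did not pass the test. In M+133+ cells the difference of DDC against untreated was 2.36 (95% interval 0.19 to 4.54, adjusted p 0.357), and it was 1.49 without sample 2, where Hamp was highest. In M-133- cells it was -0.38 (-3.04 to 2.28, adjusted p 0.939). By mean level the groups ran from M-133- untreated and M-133- DDC, which overlapped, down to M+133+ DDC and M+133+ untreated, which also overlapped.

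Hamp2, a second hepcidin gene of the mouse, followed Hamp in untreated livers and spread more widely after DDC. The levels were -6.82, -6.41, -4.85 and -4.08 in M+133+ untreated and 4.16 and 2.41 in M-133- untreated samples. They were -5.74, 0.35, -5.69 and -8.82 in M+133+ DDC and -1.95, 0.76, 2.88 and -2.29 in M-133- DDC samples. Sample 1 of M+133+ untreated and samples 1 and 4 of M+133+ DDC were not well above background, so their values are close to the lowest measurable. The untreated groups stood far apart, 452-fold (-8.82, SE 1.96, adjusted p 0.0105), a call that was lost without M-133- untreated sample 1 (-7.95, adjusted p 0.132) and with the title prefix as a block (-9.12, adjusted p 0.103).

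After DDC the Hamp2 ranges of the sorts overlapped through M+133+ DDC sample 2, and the difference of -4.82 (SE 1.60) missed the threshold (adjusted p 0.0625). Without that sample it was -6.60 and called (adjusted p 0.00338), and quantile normalization (adjusted p 0.0435) and median scaling (adjusted p 0.0198) also gave a call. Among M-133- DDC samples Hamp stayed within 0.85 log2 units while Hamp2 ranged over 5.17. DDC against untreated in M-133- cells gave -3.43 for Hamp2 (95% interval -7.62 to 0.75, adjusted p 0.514).

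**Figure D2:**
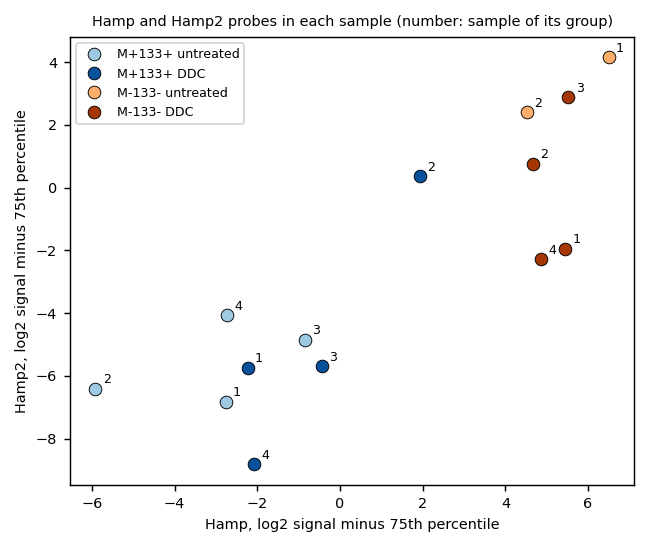
Level of the Hamp probe (x axis) and of the Hamp2 probe (y axis) in each sample, both as log2 signal minus the 75th percentile, coloured by group and numbered by sample. The M-133- samples lie at the right with Hamp2 spread from -2.29 to 4.16, and M+133+ DDC sample 2 lies between the sorts.

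Tfr2 and Hfe encode proteins of the iron sensor at the hepatocyte surface. Tfr2 levels were -6.20, -6.93, -6.48 and -4.62 in M+133+ untreated and 0.89 and 0.30 in M-133- untreated samples. In DDC livers the levels were -5.74, -1.07, -5.04 and -3.99 in M+133+ and 1.54, 0.88, -0.34 and -0.53 in M-133- samples. The sorts did not overlap in either treatment, and sample 2 was again the highest M+133+ DDC sample. Sample 2 of M+133+ untreated, sample 1 of M+133+ DDC and 1 of the 2 arrays of M+133+ untreated sample 1 were not well above background.

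Tfr2 was 101-fold lower in M+133+ cells of untreated livers (-6.65, SE 1.15, adjusted p 0.00205; -7.13 to -4.79 in the alternatives) and 20.3-fold lower after DDC (-4.35, SE 0.94, adjusted p 0.00586). The DDC difference was -5.31 without M+133+ DDC sample 2. With slide as a block it was -4.02 and not called (adjusted p 0.14). DDC against untreated gave 2.10 in M+133+ (95% interval 0.10 to 4.10, adjusted p 0.374), which was 1.14 without that sample, and -0.21 in M-133- cells (adjusted p 0.964).

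Hfe, which encodes an MHC class I-like protein, did not pass the test in any comparison as fitted here. Its brighter probe, at chr13:23795922-23795981, read -1.88, -1.11, -4.06 and -0.98 in M+133+ untreated and 0.05 and 2.08 in M-133- untreated samples. After DDC it read -4.69, -3.17, -3.46 and -1.75 in M+133+ and 0.06, -1.07, -1.88 and 1.16 in M-133- samples. M+133+ samples tended to be low, without overlap in untreated livers and with overlap after DDC. The log2 differences were -3.07 (adjusted p 0.116) and -2.84 (adjusted p 0.0529). The latter was called with quantile normalization (-3.02, adjusted p 0.0432), with median scaling (-3.54, adjusted p 0.0234), with the first repeat array alone (adjusted p 0.0489) and without M+133+ untreated sample 3 (adjusted p 0.0383), M+133+ DDC sample 4 (-3.34) or M-133- DDC sample 3 (-3.32). The dimmer probe, at chr13:23794468-23794527, did not show this, with differences of 0.04 and 0.46 (adjusted p 0.994 and 0.851 over 34588 probes).

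Trf encodes the plasma carrier of iron and is made mainly by hepatocytes. Its levels were 1.88, 1.40, 2.88 and 2.83 in M+133+ untreated and 7.59 and 5.90 in M-133- untreated samples. With DDC these became 3.79, 4.08, 0.21 and 0.75 in M+133+ and 6.22, 5.55, 6.15 and 5.97 in M-133- samples. The sorts did not overlap, and M+133+ DDC samples formed a high and a low pair. Trf was 22.6-fold lower in M+133+ untreated cells (-4.50, SE 0.92, adjusted p 0.00633) and 13.6-fold lower in M+133+ DDC cells (-3.76, SE 0.75, adjusted p 0.00344). The untreated call was lost without M-133- untreated sample 1 (-3.65, adjusted p 0.127). The DDC call held in each alternative tried, at -4.39 without M+133+ DDC sample 2. The untreated difference ran from -5.35 to -3.32 over the alternatives. On slide 2, which held 1 array of each untreated sort, the Trf difference was -1.96, and on slide 4 it was -4.11. Both slides held the same M-133- untreated sample, sample 2, whose repeat arrays read 4.85 on slide 2 and 6.94 on slide 4.

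Hamp, Tfr2 and Trf in both treatments, and Hamp2 in untreated livers, were lower in the sort whose hepatocyte markers were lower. Of the 9 hepatocyte markers measured, 7 were called lower in M+133+ cells in each treatment, with a median difference of -5.82 in untreated and -4.74 in DDC livers. All 9 were well above background on the arrays of M+133+ untreated samples. The part of hepatocytes in these differences was not tested.

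Tfrc, the receptor through which most cells import transferrin, ran the other way. Its levels were 2.48, 2.02, 1.62 and 1.42 in M+133+ untreated and 2.05 and 0.86 in M-133- untreated samples. The DDC samples stood at 1.33, 2.61, 2.45 and 1.98 in M+133+ and -0.01, -1.04, -0.12 and -0.33 in M-133- samples. The untreated sorts overlapped (difference 0.43, adjusted p 0.796), and the M-133- DDC samples lay below all others. After DDC Tfrc was 5.52-fold higher in M+133+ cells (2.46, SE 0.47, adjusted p 0.00261). Scaling to the array median gave 1.76 (adjusted p 0.0508), and slide as a block gave 2.52 (adjusted p 0.127).

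DDC against untreated in M-133- cells gave a Tfrc difference of -1.83 (95% interval -3.06 to -0.59), which missed the threshold (adjusted p 0.174). The 2 arrays of M-133- untreated sample 2 read -0.47 and 2.18, and with only the second array the difference was -2.49 and called (adjusted p 0.0428). In M+133+ cells it was 0.21 (-0.80 to 1.22). The interaction was 2.04 (95% interval 0.44 to 3.63, adjusted p 0.381). Summed erythroid markers, from cells rich in Tfrc while they mature, were 4.04 to 5.91 in M-133- untreated and 3.66 to 6.56 in M-133- DDC samples. The median erythroid marker was lower after DDC, at -5.81, -1.94, -0.25 and -5.13 against 0.13 and -0.05 untreated, as Tfrc was, although limma called 0 of the 9 markers. Their part was not tested.

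The ferritin chains were high in every sample. Fth1, the chain with ferroxidase activity, had levels of 5.64, 5.41, 5.53 and 5.76 in M+133+ untreated and 7.02 and 6.48 in M-133- untreated samples. After DDC they were 5.84, 5.51, 5.44 and 4.91 in M+133+ and 6.87, 6.21, 6.62 and 6.57 in M-133- samples. The sorts did not overlap on this scale. Fth1 was 2.24-fold lower in M+133+ untreated cells (-1.17, SE 0.26, adjusted p 0.0101) and 2.20-fold lower in M+133+ DDC cells (-1.14, SE 0.21, adjusted p 0.00195).

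The untreated Fth1 difference depended on the scaling. The probe was near the top of each array, with at most 1.08% of probes brighter, and no spot was saturated. Before scaling, its signals overlapped between M+133+ untreated (91308 to 116742 intensity units) and M-133- untreated arrays (78361 to 120890). Quantile normalization turned the difference to 0.15 (adjusted p 0.849), and it was not called with median scaling, slide as a block, no intensity trend, the first repeat array alone or without M-133- untreated sample 1. The DDC difference kept its sign and was not called with slide as a block (-1.31, adjusted p 0.0663) or without the intensity trend (adjusted p 0.0859). DDC against untreated gave -0.16 (95% interval -0.61 to 0.29) in M+133+ and -0.18 (-0.73 to 0.36) in M-133- cells.

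Ftl1, the light chain that helps to form the iron core, varied more. Its levels were 3.60, 4.60, 1.93 and 1.62 in M+133+ untreated and 7.64 and 6.48 in M-133- untreated samples. DDC livers gave levels of 6.29, 2.89, 4.11 and 4.98 in M+133+ and 6.26, 6.10, 6.58 and 5.86 in M-133- samples. M+133+ DDC sample 1 reached the M-133- range, and the other M+133+ samples stayed below it. In untreated livers Ftl1 was 17.4-fold lower in M+133+ cells (-4.12, SE 0.84, adjusted p 0.00598), a call lost without M-133- untreated sample 1 (-3.55, adjusted p 0.107). Over the alternatives the untreated difference ran from -4.74 to -2.89. On slide 2 the difference was -1.42 and on slide 4 it was -5.86. Both rest on repeat arrays of M-133- untreated sample 2, which read 5.49 on slide 2 and 7.48 on slide 4.

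After DDC the Ftl1 difference between sorts was -1.63 (SE 0.68, adjusted p 0.143), and was called without M+133+ DDC sample 1 (-2.21, adjusted p 0.0431) and with median scaling (-2.33, adjusted p 0.044). DDC against untreated in M+133+ cells gave 1.63 (95% interval 0.17 to 3.09, adjusted p 0.34). The interaction was 2.49 (0.19 to 4.80, adjusted p 0.455). Ferritin light chain has near-identical copies in the mouse genome, and Ftl2-ps followed it most closely over the samples, so which copy was read is uncertain.

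Slc40a1 encodes ferroportin, the protein that hepcidin removes. Its levels were 2.53, 2.52, 2.97 and 3.12 in M+133+ untreated and 4.42 and 3.86 in M-133- untreated samples. In DDC livers the values were 1.47, 2.61, 2.25 and 0.85 in M+133+ and 3.51, 3.35, 2.72 and 3.60 in M-133- samples. M-133- samples were above M+133+ samples of the same treatment throughout. The untreated difference of -1.36 (95% interval -2.40 to -0.31) missed the threshold (adjusted p 0.117). After DDC Slc40a1 was 2.83-fold lower in M+133+ cells (-1.50, SE 0.40, adjusted p 0.0217).

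That Slc40a1 call was lost with quantile normalization (-1.22, adjusted p 0.105), with slide as a block (adjusted p 0.204), without the intensity trend (adjusted p 0.0609) and without M+133+ DDC sample 4 (-1.18), M-133- DDC sample 1 (-1.43) or M-133- DDC sample 4 (-1.40). DDC against untreated gave -0.99 in M+133+ (adjusted p 0.321) and -0.85 in M-133- cells (adjusted p 0.524). Macrophages are a known site of ferroportin, and Kupffer cell markers summed to 1.58 to 3.00 in M+133+ untreated, 0.13 to 4.32 in M-133- untreated, -0.99 to 3.78 in M+133+ DDC and 2.62 to 4.68 in M-133- DDC samples. Their part was not tested.

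**Figure D3:**
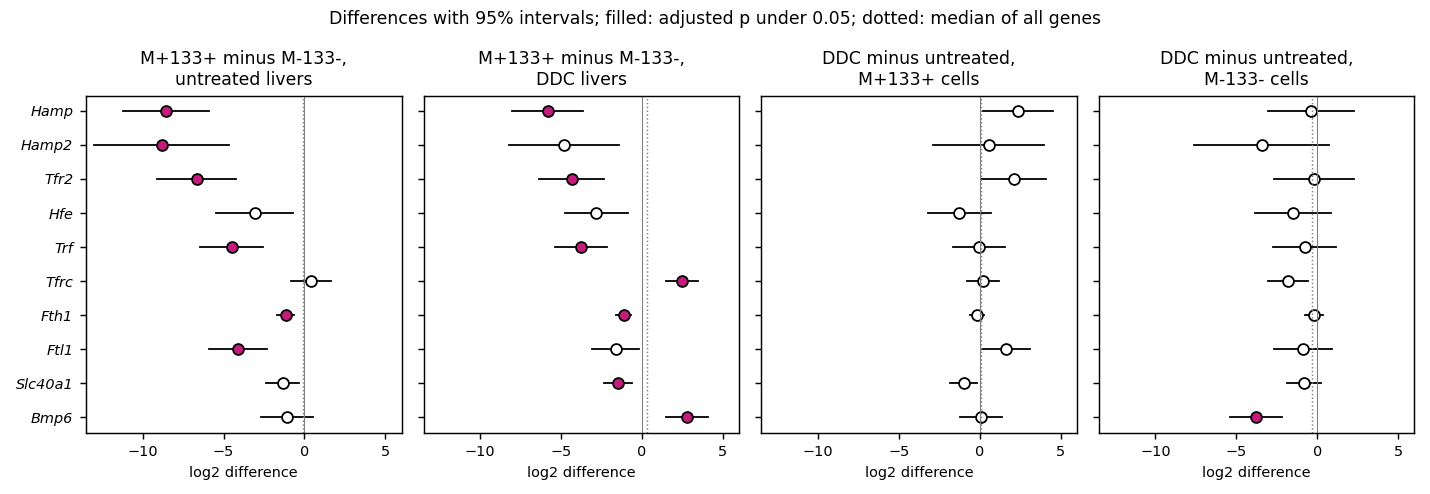
Log2 differences (x axis) with 95% intervals for the 10 genes (y axis) in the 2 sort comparisons and the 2 DDC comparisons, from limma on all 14 samples. Filled points passed an adjusted p of 0.05 and dotted lines mark the median of all genes, from -0.36 to 0.31, with the filled points in 13 of the sort comparisons' 20 and in 1 of the DDC comparisons' 20 rows.

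Bmp6, the ligand that signals iron load to hepatocytes, was the only member called with DDC within a sort. The brighter probe, at chr13:38591479-38591538, read 1.07, 0.75, 0.10 and 1.21 in M+133+ untreated and 2.35 and 1.39 in M-133- untreated samples. After DDC it read 1.70, 0.03, 1.43 and 0.31 in M+133+ and -1.49, -3.08, -2.28 and -0.80 in M-133- samples. All 4 M-133- DDC samples lay below the other 10 samples. Bmp6 fell 13.8-fold with DDC in M-133- cells (-3.79, SE 0.75, adjusted p 0.0254), and was 0.09 apart in M+133+ cells (95% interval -1.21 to 1.39). The interaction was 3.87 (1.82 to 5.93) and missed the threshold (adjusted p 0.142).

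Within slide 1 the DDC difference of Bmp6 in M-133- cells was -3.84 and within slide 2 it was -4.60. The call was lost without M-133- untreated sample 1 (-3.31) or sample 2 (-4.26), each of which leaves a lone untreated sample. It was also lost with median scaling (-3.12, adjusted p 0.125) and with the mean of both probes (-3.53, adjusted p 0.0568). The title prefix as a block ended it too. Each prefix was on samples of 1 treatment only, so that block cannot estimate a DDC effect within a sort. After DDC Bmp6 was 6.89-fold higher in M+133+ than in M-133- cells (2.78, SE 0.61, adjusted p 0.00651), a call lost with median scaling (2.08, adjusted p 0.0711) and with the mean of both probes (1.60, adjusted p 0.139). In untreated livers the sort difference was -1.09 (adjusted p 0.505).

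The dimmer Bmp6 probe read -0.24, 0.26, 0.56 and -2.07 in M+133+ untreated, 2.99 and 0.10 in M-133- untreated, -0.03, -0.87, -0.32 and -4.03 in M+133+ DDC and 0.38, -2.22, -2.73 and -2.38 in M-133- DDC samples. Its groups overlapped more than those of the brighter probe. The repeat arrays of M-133- untreated sample 2 read 1.64 and -1.44. DDC against untreated in M-133- cells gave -3.28 (95% interval -5.95 to -0.62, adjusted p 0.263 over 34588 probes). The sort difference after DDC was 0.42 (adjusted p 0.843), so the probes disagree on that comparison.

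Endothelial markers moved with Bmp6 in M-133- cells. Their sum (9 genes) was 8.48 to 9.13 in untreated and 3.71 to 6.86 in DDC samples, and its mean fell by 3.28 log2 units, although 0 of the 9 genes passed limma's test. In M+133+ cells the sum was lower still, 2.10 to 3.90 untreated and 0.33 to 2.50 after DDC, while the brighter Bmp6 probe was between 0.03 and 1.70 and the dimmer one between -4.03 and 0.56. The part of endothelial cells in the Bmp6 difference was not tested.

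**Figure D4:**
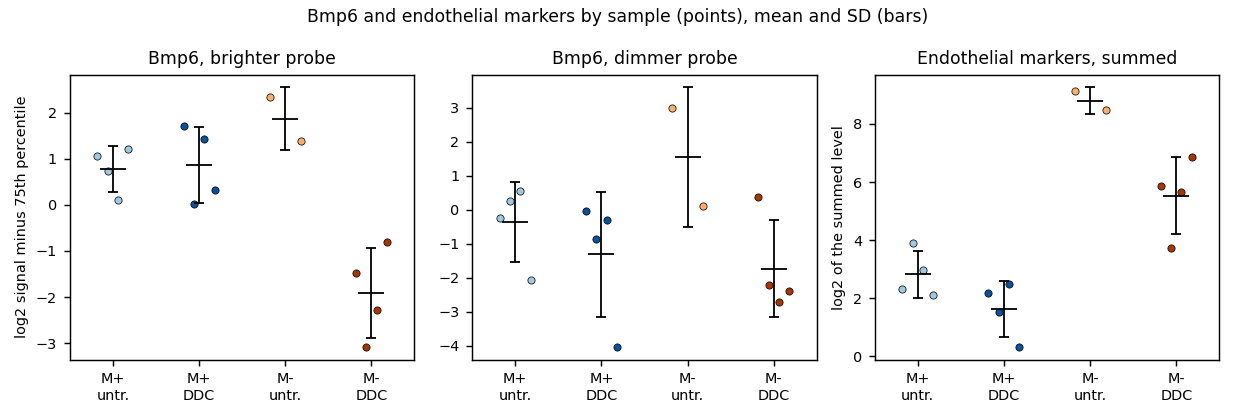
Levels of the brighter and the dimmer Bmp6 probe and the summed level of 9 endothelial markers (y axes, log2 relative to the 75th percentile) by group (x axis), with a point per sample and bars for mean and SD. In M-133- cells the brighter probe and the marker sum are lower after DDC. In M+133+ cells the brighter probe lies above its M-133- DDC range, and the dimmer probe overlaps its own.

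The other genes of iron handling were counted in 4 lists. Of 13 genes for uptake of iron, heme and hemoglobin, 4 were lower in M+133+ untreated cells and 0 higher, against 5.16% and 3.63% of all genes. Hp, the haptoglobin gene, differed by -6.59 (adjusted p 0.00111) and Hpx, the hemopexin gene, by -8.17 (adjusted p 0.00155). Both products are plasma proteins from hepatocytes that bind hemoglobin and heme. Slc39a8, a metal importer, differed by -2.64 and lost its call without any 1 of the 6 untreated samples. Hmox1, which breaks down heme, differed by -2.93, with 1.09 and 4.78 in the M-133- untreated samples. Without the higher of these, sample 2, its difference was -1.09 (adjusted p 0.651), and with the first repeat array alone it was -1.70 (adjusted p 0.142).

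After DDC 4 of the 13 uptake genes were lower in M+133+ cells, against 6.48% of all genes: Hpx (-6.70), Steap4 (-4.43), Hp (-4.33) and Slc39a8 (-2.57), with adjusted p from 0.000705 to 0.0112. Without M+133+ DDC sample 2, where Hp was at 4.61 and Hpx at 3.63, the differences were -5.25 for Hp and -8.15 for Hpx. With slide as a block Steap4 (-3.80, adjusted p 0.243) and Slc39a8 (-2.62, adjusted p 0.0663) were not called. Steap4, a metalloreductase, rose with DDC in M-133- cells by 4.13 (SE 0.87, adjusted p 0.0364), from 0.11 and -0.95 to 3.66, 2.99, 4.40 and 3.79. All DDC samples were above both untreated samples. The call was lost under 11 alternatives, among them those without either untreated sample and that with slide as a block. The title prefix as a block, also among them, cannot estimate a DDC effect within a sort.

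Of 12 genes for iron sensing, storage turnover and handling, 1 was higher and 2 lower in M+133+ untreated cells, against 3.63% and 5.16% of all genes. Cp encodes ceruloplasmin, a ferroxidase that loads iron onto transferrin. Its levels were 4.44, 4.38, 4.72 and 4.98 in M+133+ untreated, 1.94 and 1.78 in M-133- untreated, 5.03, 4.25, 4.37 and 4.67 in M+133+ DDC and 4.99, 3.77, 5.57 and 4.62 in M-133- DDC samples. The M-133- untreated samples were low and the other 3 groups overlapped. Cp was 6.83-fold higher in M+133+ untreated cells (2.77, SE 0.41, adjusted p 0.000709), in all alternatives tried. It rose 7.33-fold with DDC in M-133- cells (2.87, SE 0.41, adjusted p 0.0034). That call was lost only with the title prefix as a block, which cannot estimate a DDC effect within a sort.

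Pcbp2, an iron chaperone, differed by -2.46 and Slc25a37, the mitochondrial importer mitoferrin 1, by -3.07 in the untreated sort comparison. Neither call held without either M-133- untreated sample. The Pcbp2 difference was -0.89 with the mean of its probes (adjusted p 0.447), -1.34 with quantile normalization (adjusted p 0.0764) and -1.73 with the first repeat array alone (adjusted p 0.185). After DDC limma called 0 of the 12 handling genes between sorts, against 12.9% of all genes.

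Of 17 genes of BMP and SMAD signalling to hepcidin, 1 was higher and 2 lower in M+133+ untreated cells, and 2 were higher and 3 lower after DDC. Over all genes 3.63% were higher and 5.16% lower untreated, and 6.44% and 6.48% after DDC. Bmp2, a ligand made by endothelial cells that also acts on hepcidin, was -1.65, 1.43, -1.68 and -1.79 in M+133+ untreated and 4.78 and 5.58 in M-133- untreated samples. After DDC it was -0.39, 0.26, 0.52 and 0.50 in M+133+ and 3.17, 2.43, 2.09 and 3.83 in M-133- samples. The sorts did not overlap, and the differences were -6.11 (SE 0.83, adjusted p 0.000378) and -2.66 (SE 0.68, adjusted p 0.0165). The latter call was lost without M-133- DDC sample 4 (-2.34, adjusted p 0.0515). Smad6, an inhibitory SMAD, differed by -4.68 in untreated livers (adjusted p 0.0179), a call lost without M-133- untreated sample 1 (-4.17, adjusted p 0.18) or sample 2 (-5.20, adjusted p 0.0668) and with the title prefix as a block (adjusted p 0.0566).

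Atoh8, a transcription factor known as a BMP target in liver, was 3.26, 3.05, 3.86 and 3.86 in M+133+ untreated and -1.15, 0.97, 0.02 and -0.85 in M+133+ DDC samples. It fell 13.5-fold there (-3.76, SE 0.55, adjusted p 0.0195), with no overlap. In M-133- cells it was 1.19 and 0.58 untreated and 0.64, 1.84, 1.64 and 2.72 after DDC. The sort difference was 2.62 in untreated livers (adjusted p 0.0242) and -1.96 after DDC (adjusted p 0.0276). The former call was lost under 8 alternatives, among them those without either M-133- untreated sample and with slide as a block, and the latter under 6, among them slide as a block (-2.37, adjusted p 0.132). The DDC call in M+133+ cells was lost without M+133+ untreated sample 3 or 4 and without M+133+ DDC sample 4. It was also lost with the title prefix as a block, which cannot estimate a DDC effect within a sort.

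After DDC, Neo1, which encodes the hemojuvelin partner neogenin, was higher in M+133+ cells (2.56, adjusted p 0.012), but not called with median scaling (1.86, adjusted p 0.069). Id1, a SMAD target, was also higher (1.59, adjusted p 0.0477). Tmprss6, whose protease dampens the pathway, was lower (-3.16, adjusted p 0.0418). The Id1 call was lost under 23 alternatives and that of Tmprss6 under 15.

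Of 6 genes of IL-6 signalling, 1 was lower in M+133+ cells in each treatment, against 5.16% of all genes untreated and 6.48% after DDC. Il6st, the shared receptor chain gp130, differed by -3.81 in untreated livers (adjusted p 0.00512), a call lost without M-133- untreated sample 1 (-3.21, adjusted p 0.103). Il6 itself differed by -8.96 after DDC (adjusted p 0.00104), with 0.38, 3.76, 1.90 and 1.04 in M-133- DDC samples. In M+133+ DDC cells only sample 2 was well above background for Il6, at -3.29. Without that sample the difference was -10.25, with normexp background correction it was -5.68, and with slide as a block it was -7.09 and not called (adjusted p 0.0967). The fitted Il6 difference therefore rests on values near the lowest measurable.

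**Figure D5:**
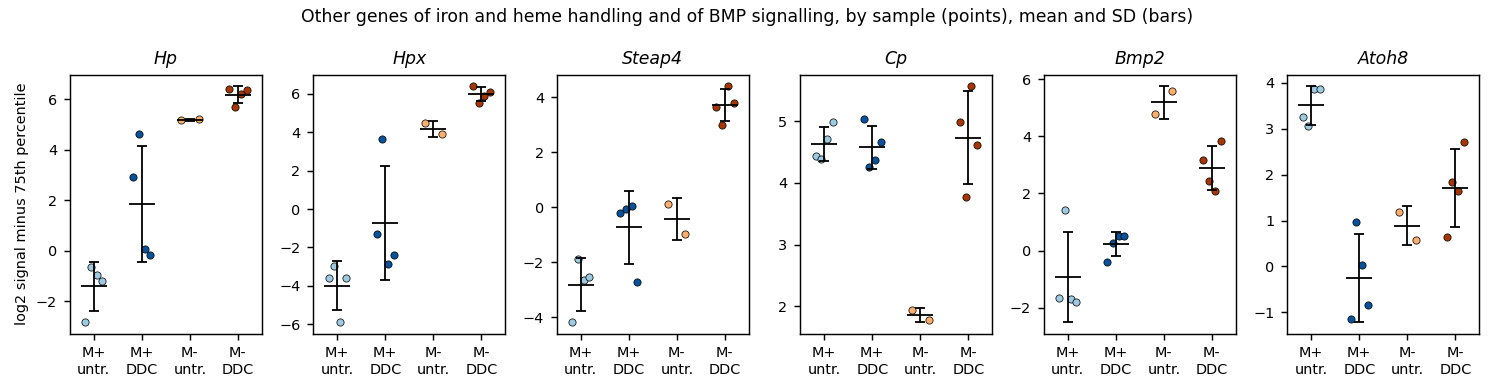
Levels (log2 signal minus the 75th percentile, y axis, scaled per panel) of 6 other genes by group (x axis), with a point per sample and bars for mean and SD. Hp and Hpx are high in M-133- samples, Steap4 is highest in M-133- DDC, Cp is low only in M-133- untreated, Bmp2 is highest in M-133- untreated and Atoh8 is highest in M+133+ untreated samples.

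For the members other than Bmp6, the gene with the most similar level over the 14 samples by Pearson's r was found among all genes tested. The samples share the difference between sorts, so these are descriptions. The closest gene was Gldc for Hamp (r = 0.96), Creb3l3 for Hamp2 (0.92), Serpina3j for Tfr2 (0.98) and Emcn for Hfe (0.92). It was Mup4 for Trf (0.96), AK040393 for Tfrc (0.93), Rgn for Fth1 (0.96), Ftl2-ps for Ftl1 (0.97) and Ndufb3 for Slc40a1 (0.97).

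The authors' deposited table gives signed folds of M-133- over M+133+ cells, with false discovery rates in percent. In the authors' deposited table Hamp was at 235 (0.25%), Hamp2 at 429 (0%) and Tfr2 at 116 (0.11%) in untreated livers. In the authors' deposited table Fth1 was at -1.085 there (53.05%), opposite to the direction above, and at 1.955 after DDC (24.49%). Trf was at 9.669 (1.1%) and Ftl1 at 6.521 (4.12%) in untreated livers in the authors' deposited table. The untreated folds fitted here were larger, 22.6 for Trf and 17.4 for Ftl1. The brighter Hfe probe, not called here, was at 10.737 untreated (2.19%) and 8.127 after DDC (5.17%) in the authors' deposited table. Slc40a1, called here after DDC, was at 2.327 after DDC (29%) in the authors' deposited table. The authors' deposited table has the DDC change of Bmp6 in M-133- cells at -11.111 by the brighter probe (15.52%) and at -6.211 by the dimmer one (39.01%).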

How the data were processed

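RNA was labelled with Cy3 and hybridized in 1 colour to Agilent mouse arrays. The deposited intensity of each spot comes, per the file headers, from Agilent Feature Extraction 10.5.1.1, which subtracts background within an array and leaves arrays unscaled. The authors' deposited table holds signed folds and false discovery rates in percent, each read as a score and used for comparison only, and the submitters' processing notes name limma. Probe positions are on mm9. RefSeq GRCm38.p6 gave gene names (26682 probes by accession, 5195 by symbol, 951 by synonym, and 8346 kept the file's name).

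Each array's 75th percentile was subtracted from the log2 intensity, outlier spots were left out, and repeat spots and arrays were averaged. A probe stayed if the scanner software placed it well above background in at least 0.5 of the samples of some group, and the brightest was used per gene. Limma 3.58.1 (R 4.3.3) fitted all 14 samples with an intensity trend, two-sided. Calls needed a Benjamini-Hochberg adjusted p below 0.05 across 23309 genes. The fit was tested on simulated data. The number of arrays limits the precision.

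The members and lists were chosen with earlier results of these data known. Named were all members, called genes of the 4 lists by size, and the nearest patterns (that of Bmp6 is not reported here). Alternatives covered background, scaling, filter, probe, slide, replicate number, title prefix, trend, repeat arrays and left-out samples. The title prefix is the number that opens a sample title, and the labels do not explain it. After DDC each prefix was shared by a sample of each sort, as were some prefixes of untreated samples. The main fit did not pair the sorts by it.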

Additional observations from a re-analysis of the deposited data

Results flagged for a closer look

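The DDC effect of Cp in M+133+ cells differed from that in M-133- cells by limma's interaction term, at -2.92 (SE 0.53, adjusted p 0.0357). That of Atoh8 differed by -4.58 (SE 0.87, adjusted p 0.0433). Each kept its sign in all 26 alternatives, from -3.44 to -2.65 for Cp and from -5.29 to -4.24 for Atoh8, and was no longer called in 17 of them (adjusted p up to 0.296 and 0.398). Among the lost calls were those without any 1 of the 4 M+133+ untreated samples or either M-133- untreated sample.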

How the results depend on the processing

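The 50 results of the 10 genes gave 1310 values under the alternatives. Of these, 1191 kept direction and side of the threshold, 36 lost a call, 14 gained one and 68 changed sign without a call in either setting. In 1 value a called result reversed: Fth1 between untreated sorts became 0.15 with quantile normalization. Hamp and Tfr2 between untreated sorts and Trf between DDC sorts kept their calls in each alternative. The 26 called results of other iron genes kept their sign in all 676 values and lost the call in 158.

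Over all genes, 2050 were called between untreated sorts, 3012 between DDC sorts, 56 by DDC among M+133+ samples, 237 by DDC among M-133- samples and 60 by the interaction. The DDC count among M+133+ samples was 136 with quantile normalization, 30 with median scaling, 87 with the mean of probes, 27 with slide as a block and 22 without the trend. The interaction count was 38 with normexp, 19 with slide as a block and 37 without the trend. Slide as a block gave 1212 between DDC sorts. The title prefix as a block gave 824 between untreated sorts, 2416 between DDC sorts and 1 by the interaction. Each prefix was on samples of 1 treatment only, so this block cannot estimate a DDC effect within a sort. Its 0 calls by DDC among M+133+ samples and 3 among M-133- samples, and the DDC calls it ended, therefore say nothing about DDC. Dropping 1 sample at a time gave 842 to 2216 between untreated sorts, 2419 to 2958 between DDC sorts, 6 to 119 by DDC among M+133+ samples, 82 to 281 among M-133- samples and 18 to 110 by the interaction. The lowest of these between untreated sorts was without M-133- untreated sample 1, which leaves a lone sample, assumed to vary like the other groups. Without it and M+133+ DDC sample 2, an alternative chosen after seeing the data, 877 were called between untreated sorts, 81 by DDC among M-133- samples and 39 by the interaction. Fitting the dimmer probes was also chosen after seeing the data.

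Deviations of same-numbered samples from their group means correlated at -0.06 to 0.08. Samples of different sorts that shared a title prefix had correlations of -0.01 to 0.11, and those that shared none had -0.16 to 0.09. Deviations within a group cancel each other, which ties these correlations together. They therefore cannot decide whether replicate number or prefix paired the samples. The replicate block gave 20 calls by DDC among M+133+ samples, 115 among M-133- samples and 24 by the interaction. Among the 10 genes it ended the calls of Slc40a1 between DDC sorts (-1.50, adjusted p 0.0508) and of Bmp6 by DDC among M-133- samples (-3.87, adjusted p 0.0529) and made that of Hfe between DDC sorts (-2.84, adjusted p 0.0288).

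Scaling moved the balance of all genes. Between DDC sorts 1502 were higher and 1510 lower in M+133+ cells, and 876 and 2424 with median scaling, where the median of all genes went from 0.31 to -0.39. Between untreated sorts 847 were higher and 1203 lower, and 529 and 1239 with normexp (median -0.52). After DDC among M-133- samples 143 were higher and 94 lower, 111 and 158 with normexp (median -0.76), 164 and 56 with quantile (0.06) and 230 and 42 with median scaling (0.31). The interaction had 14 higher and 46 lower, and 5 and 45 with median scaling.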
